A study of Mus musculus with 2 samples.

Results

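Cxcl1, Cxcl2, Cxcl3 and Cxcl5 are mouse CXC chemokines that carry the glutamate-leucine-arginine motif and bind Cxcr2, and Cxcr2 is their shared receptor. These 5 genes, 4 ligands and 1 receptor, were taken by name from the 33696 genes measured, and all 5 were found once in both libraries. Chemokines of this group are secreted by epithelial cells, fibroblasts and myeloid cells in response to interleukin-1, tumour necrosis factor and bacterial products, mostly through NF-kB, and their mRNAs are short-lived. Cxcr2 is a receptor coupled to inhibitory G proteins that sits mainly on neutrophils, where it drives release from bone marrow and migration into inflamed tissue, and it is internalised once ligand binds. In tumours these chemokines are known for drawing in neutrophils and other Cxcr2-bearing myeloid cells.

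The transcripts were measured by droplet single-cell RNA sequencing of solid tumours from mice carrying ID8 cells, a mouse ovarian surface epithelial line that grows in the peritoneal cavity. The chemoresistant group was 1 library of ID8 tumours labelled as treated with cisplatin, a platinum drug that crosslinks DNA. The primary group was 1 library of treatment-naïve ID8 tumours. Both groups carried the same tumour model, and suspensions from several tumours were pooled before loading, so that animals cannot be told apart. Dose, schedule, age and the number of tumours per pool are not given in the sources used here. With 1 library per group no difference has a replicate check and no test was made. Every interval is a 95% interval of counting error only, exact Poisson for levels and exact binomial (Clopper-Pearson) for shares.

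After filtering, 13130 chemoresistant and 12520 primary cells remained, with a median of 4156 and 5633 unique molecular identifiers (UMIs, each standing for 1 captured transcript) per cell. A total of 52 barcodes occurred in both libraries. Each cell was put in a class by counting the marker genes it held: at least 3 detected markers of a list and a lead of at least 2 over the next of the 14 lists. None of the 5 genes is a marker. The tumour class, in which a cell held a median of 10 of the 16 keratin, mesothelial and epithelial markers, had 3275 chemoresistant and 1051 primary cells. Host mesothelial cells had no list of their own, and whether this class holds some beside ID8 cells was not tested. Below, tumour cells are the cells of this class. The neutrophil class had 682 cells (5.19% of the library) in the chemoresistant library and 1431 cells (11.4%) in the primary library. These neutrophils were shallow, with a median of 902 UMIs in the chemoresistant and 2432 in the primary library. The mononuclear phagocyte class (monocytes and macrophages) had 3958 and 3177 cells, and the fibroblast class 260 and 262. A class cut in this way is a range: 242 chemoresistant and 182 primary tumour cells stood at the cut, 75 and 137 neutrophils, 198 and 234 phagocytes, and 87 and 37 fibroblasts. Tumour cells also held a median of 1 and 2 neutrophil markers and of 2 and 3 phagocyte markers. Cells that met no rule were left unassigned, 10.7% of the chemoresistant and 13.4% of the primary library. B-lineage cells, 2858 chemoresistant and 3259 primary, were used as the level that free RNA in the droplets can give, since B cells are not a known source of these genes; their median depths were 1511 and 4446 UMIs. Part of that level came from single cells: leaving out the 1 B-lineage cell of each library with the most UMIs of the gene, Cxcl1 was at 9.49 and 36.8 CPM, against 13.1 and 49.6 CPM with it, and Cxcl2 at 20.4 and 36.3 CPM, against 20.8 and 50.2 CPM with it.

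The 4 ligand genes lie in 1 gene cluster on mouse chromosome 5 (GRCm38, plus strand), with Cxcl5 at chr5:90759360-90761624, Cxcl3 at chr5:90786103-90789600, Cxcl1 at chr5:90891241-90893115 and Cxcl2 at chr5:90903871-90905938. The span of 146579 bases holds 7 protein-coding genes in the GENCODE annotation, the other three being Ppbp and Pf4, between Cxcl5 and Cxcl3, and Cxcl15, between Cxcl3 and Cxcl1. Cxcr2 lies apart, at chr1:74153989-74161246. No annotated gene overlaps any of the 5. Of all 60-base windows of their transcripts, the largest share also found in another gene was 5.32% for Cxcl2, in Cxcl3. The 120 bases before the transcription starts of Cxcl1, Cxcl2 and Cxcl3 (RefSeq, GRCm38.p6, plus strand) are shown because all 3 hold the same run of 11 bases, in capitals. The windows lie at chr5:90891125-90891244, chr5:90903779-90903898 and chr5:90785981-90786100.
Cxcl1: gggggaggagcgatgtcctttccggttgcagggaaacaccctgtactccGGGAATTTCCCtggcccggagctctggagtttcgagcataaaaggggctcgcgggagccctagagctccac
Cxcl2: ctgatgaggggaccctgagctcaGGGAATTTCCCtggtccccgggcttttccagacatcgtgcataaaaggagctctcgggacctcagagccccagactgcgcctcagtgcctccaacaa
Cxcl3: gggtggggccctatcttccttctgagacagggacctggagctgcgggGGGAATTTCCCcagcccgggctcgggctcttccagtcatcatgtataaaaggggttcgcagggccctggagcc
GGGAATTTCCC is the longest run of letters shared by the 250 bases before the start of these 3 ligands, and holds a form of the sequence known as the NF-kB motif. It begins 71 bases before the start in Cxcl1, 97 in Cxcl2 and 73 in Cxcl3. Searched on both strands (reverse complement GGGAAATTCCC), it was found in that window of 14 of 32851 RefSeq promoters (0.0426%), which include these 3 by construction, and not in that of Cxcr2. This describes letters only, and no binding was measured.

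Who makes the ligands differed by gene, and the makers differed between libraries. Over all cells, Cxcl1 stood at 82.9 CPM (counts of the gene's UMIs scaled to the same total of UMIs in every class and library) in the chemoresistant and 416 CPM in the primary library, Cxcl2 at 294 and 594 CPM, and Cxcl3 at 11.4 and 20.6 CPM. Cxcl5 went the other way, with 6.05 CPM in the chemoresistant and 2.76 CPM in the primary library. Cxcr2 stood at 6.75 CPM in the chemoresistant and 23.0 CPM in the primary library. These library levels mix how many cells of a class there are with how much each holds, so the values below are given within classes.

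**Figure D1:**
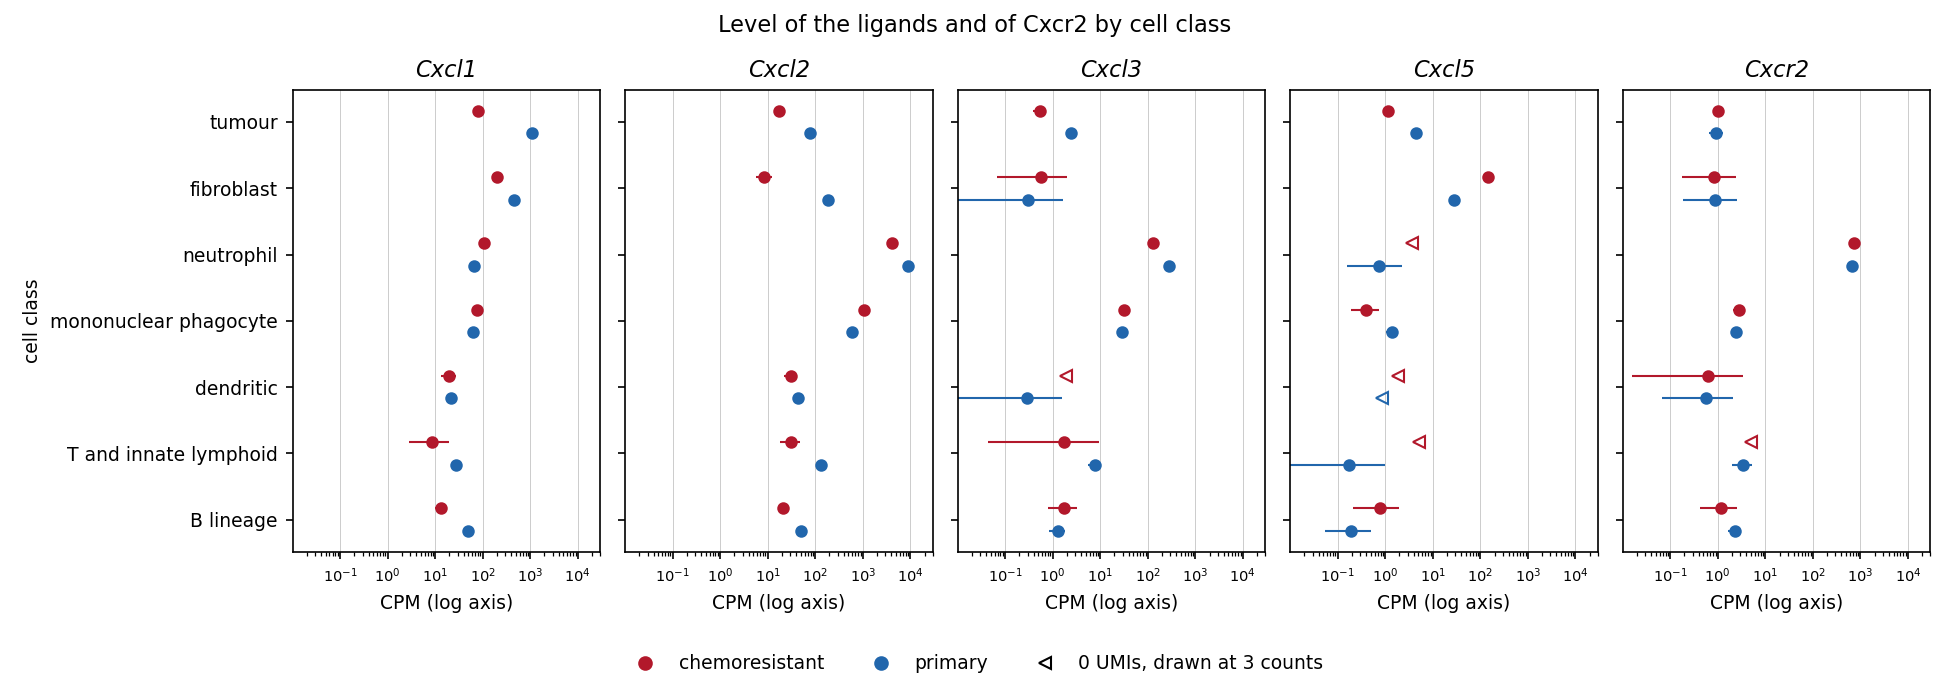
Level of each ligand and of Cxcr2 in 7 cell classes (rows) in CPM on a log axis, chemoresistant library above the primary library in each row; bars are exact Poisson 95% intervals of counting error and open triangles mark classes with 0 UMIs, drawn at the level of 3 counts. Tumour-class Cxcl1 stood at 78.7 CPM in the chemoresistant and 1103 CPM in the primary library, and Cxcr2 passed 100 CPM in neutrophils alone among these 7 classes.

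Cxcl1 attracts neutrophils and is made by many stromal and epithelial cells. In the primary library its level was highest in tumour cells among the classes of at least 100 cells; in the chemoresistant library the tumour class ranked 4th among these, after the erythroid, fibroblast and neutrophil classes, of which the erythroid and neutrophil values rest on a few cells. In tumour-class cells it stood at 78.7 CPM (76.8 to 80.7) in the chemoresistant library and at 1103 CPM (1092 to 1113) in the primary library. The log2 ratio of the chemoresistant to the primary library, taken after adding 5 CPM to both levels, was -3.73, a 13.2-fold lower level. A gene was counted as lower or higher where it passed 1.5-fold on that scale and its mean over both libraries was at least 10 CPM. In the tumour class 11% of the 8980 genes at that level were lower and 4.06% were higher, and the median gene stood at -0.13. Of the 5 genes, Cxcl1 and Cxcl2 reached 10 CPM in this class and both were lower. Tumour-class Cxcl2 stood at 17.1 CPM in the chemoresistant and 78.3 CPM in the primary library, against 20.8 and 50.2 CPM in B-lineage cells. Its chemoresistant value thus lay below the level taken for free RNA, which was itself lower in that library, with a log2 ratio of -1.10.

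Cxcl1 was also found in fewer tumour cells, and a larger part of its UMIs lay in the top cells. At least 1 Cxcl1 UMI was found in 32.7% (31.1 to 34.3%) of the tumour-class cells of the chemoresistant library and in 70.3% (67.5 to 73.1%) of those of the primary library. With every cell thinned to 500 UMIs the shares were 3.15% and 26.5%, against 0.315% and 1.53% of the B-lineage cells treated in the same way. Tumour cells above 1000 CPM of Cxcl1 numbered 65 (1.98%) in the chemoresistant and 321 (30.5%) in the primary library. The 10% of tumour cells with the most Cxcl1 held 83.1% of the class's Cxcl1 UMIs in the chemoresistant and 61.1% in the primary library. No single cell held more than 2.91% of them. The median tumour cell held 0 Cxcl1 UMIs in the chemoresistant and 3 in the primary library. The shares of the top cells were not matched for level, so evenness and level cannot be told apart here.

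The lower level was seen in each cluster that held enough tumour-class cells of both libraries. Clusters were made jointly without the 5 genes, and 4 of them had at least 20 tumour-class cells in each library. Cxcl1 was lower in the chemoresistant library in all 4, by 4.24-fold to 26.4-fold. Cluster 8, led by Sparc, Cst12 and Ctnna2, had the highest primary value, with 181 CPM in 261 chemoresistant cells and 1750 CPM in 517 primary cells, and it held 90.6% of the primary library's tumour-class Cxcl1. This cluster carried 12 of the tumour markers, but its 10 leading genes held 0 of them. Cluster 3, led by Kcnd2, Tm4sf1 and Lgals7, had 37.4 CPM in 1763 chemoresistant and 158 CPM in 224 primary cells. Cluster 13, of shallow cells (median 3269 and 3617 UMIs), had 8.27 CPM in the chemoresistant library, below the B-lineage level of 13.1 CPM, and 219 CPM in the primary library. The make-up of the class thus differed too: cluster 8 was 7.97% of the chemoresistant and 49.2% of the primary tumour class. Cluster 14, led by Cryab, Ndrg1 and Ero1a, with 428 chemoresistant and under 20 primary cells of the class, had 227 CPM of Cxcl1. Tumour cells with Mki67, Top2a or Cdk1, genes of cycling cells, had 75.8 CPM in the chemoresistant and 1003 CPM in the primary library, and those without these genes had 80.2 and 1203 CPM.

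**Figure D2:**
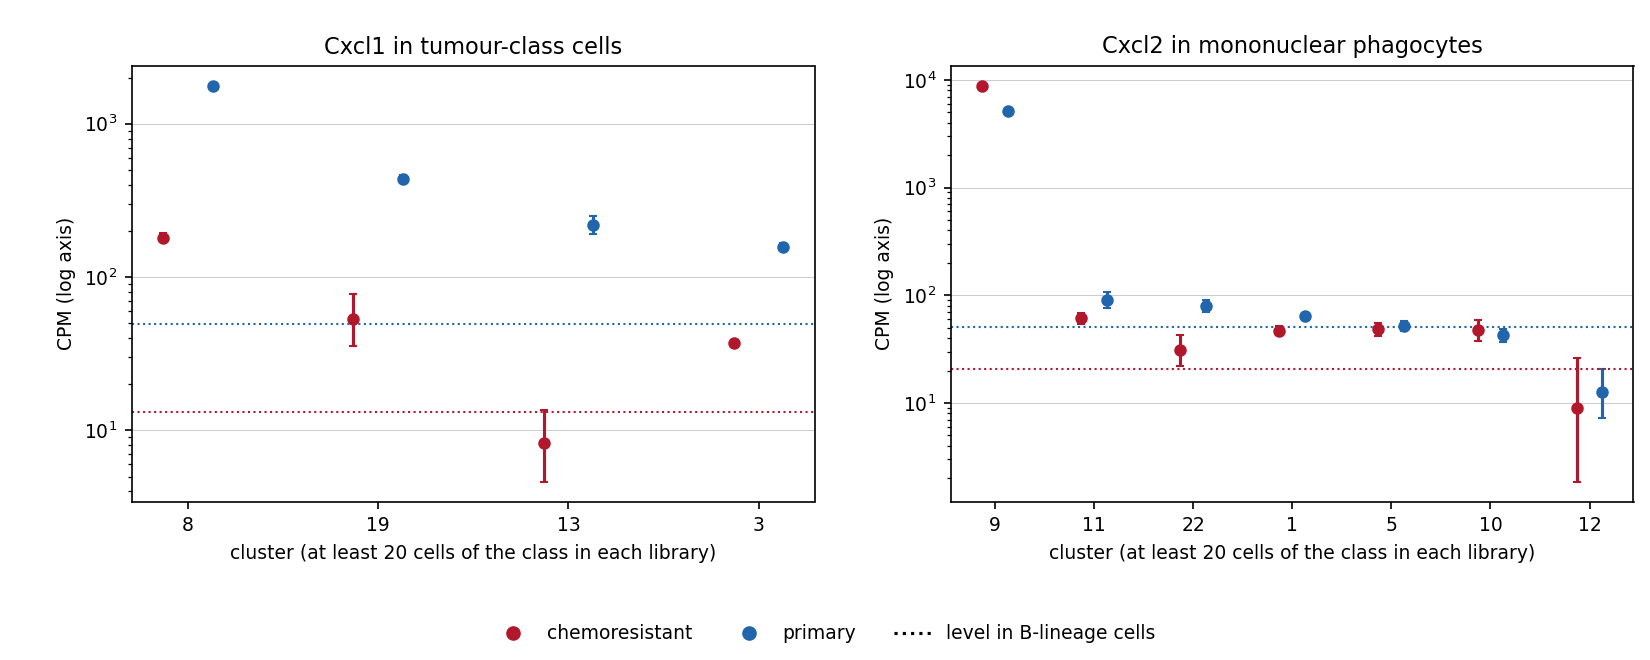
Cxcl1 in tumour-class cells (left) and Cxcl2 in mononuclear phagocytes (right) in each cluster with at least 20 cells of the class in both libraries, in CPM on a log axis, chemoresistant left of primary; bars are exact Poisson 95% intervals and dotted lines the level in B-lineage cells of each library. Cxcl1 was lower in the chemoresistant library in all 4 clusters shown for tumour-class cells, while Cxcl2 stood at 8705 and 5106 CPM in phagocyte cluster 9 and below 100 CPM in the other clusters shown.

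Outside the tumour class Cxcl1 was found in several classes. Fibroblasts stood at 202 CPM (187 to 217) in the chemoresistant and 467 CPM (445 to 491) in the primary library, a log2 ratio of -1.19. The fibroblasts of the libraries lay mostly in different clusters, as given below for Cxcl5. Mononuclear phagocytes had 75.8 CPM (72.4 to 79.3) and 61.8 CPM (59.3 to 64.4), within 1.5-fold; the log2 ratio of 0.27 became 0.68 with the class taken from clusters and 1.97 with the B-lineage level subtracted. The neutrophil value, 105 CPM in the chemoresistant and 65.6 CPM in the primary library, rests on 88 UMIs in 15 chemoresistant cells and on 260 UMIs in 157 primary cells. A single chemoresistant neutrophil held 50 of the 88 UMIs. Without the top cell of each library the values were 46.5 and 58.4 CPM, and the log2 ratio of 0.64 turned to -0.30, within 1.5-fold; as a mean over cells it was -0.50. Erythroid-class cells stood at 252 CPM in the chemoresistant and 35.2 CPM in the primary library, and 4 chemoresistant cells that clustered with phagocytes (the Il1b-led cluster 9) held 71 of the 73 UMIs there. The 23 adipocyte-class cells of the primary library stood at 652 CPM (577 to 734). B-lineage cells had 13.1 CPM in the chemoresistant and 49.6 CPM in the primary library, and the primary values of neutrophils and phagocytes lay close to that level.

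The share of a library's Cxcl1 UMIs that lay in tumour-class cells was 60.7% in the chemoresistant and 77.7% in the primary library. The same cells held 64.0% of all UMIs of the chemoresistant and 29.3% of those of the primary library, so that the chemoresistant share was no higher than the tumour cells' share of RNA. Mononuclear phagocytes held 17.9% and 4.22%, fibroblasts 6.75% and 2.85%, and unassigned cells 12.1% and 11.9%.

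**Figure D3:**
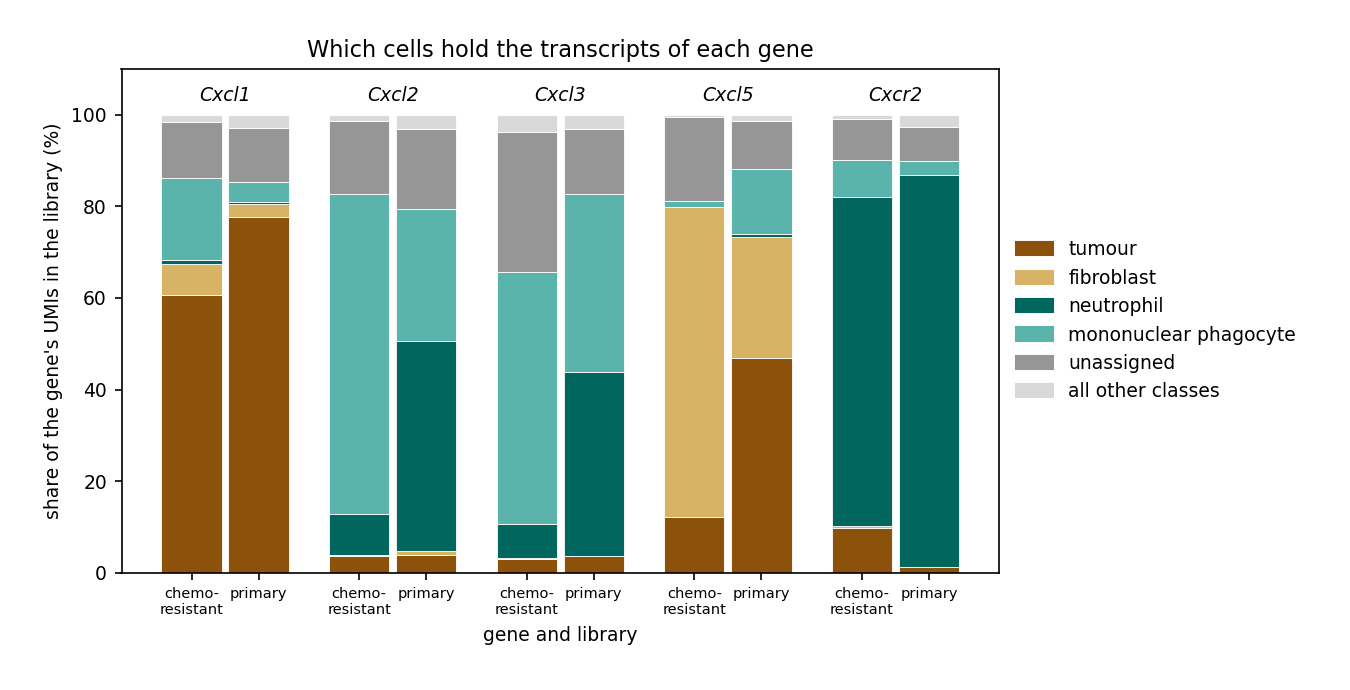
Share (%) of each gene's UMIs in a library that lay in each cell class, as stacked bars from 0 to 100%, chemoresistant left of primary for each gene. Neutrophils held 8.99% of Cxcl2 UMIs in the chemoresistant and 45.9% in the primary library, and fibroblasts 67.8% and 26.2% of Cxcl5 UMIs.

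Cxcl2, which is made chiefly by activated myeloid cells, came from neutrophils and mononuclear phagocytes. Phagocytes held 69.9% of its UMIs in the chemoresistant and 28.8% in the primary library, and neutrophils 8.99% and 45.9%, with 16.0% and 17.6% in unassigned cells. Per cell class the 2 sources differed in direction. Neutrophils stood at 4038 CPM (3903 to 4177) in the chemoresistant and 9146 CPM (9052 to 9241) in the primary library, a log2 ratio of -1.18 that came within 1.5-fold, at -0.57, with cells thinned to 1000 UMIs and shallower cells left out. Phagocytes stood at 1050 CPM (1037 to 1062) and 603 CPM (595 to 611), a log2 ratio of 0.80 that came within 1.5-fold, at 0.55, with a class lead of 4 markers. In the neutrophil class 12.6% of all genes at 10 CPM were lower and 12.9% higher; of the 5 genes, 4 reached 10 CPM there, Cxcl2 and Cxcl3 being lower, Cxcr2 within 1.5-fold, and Cxcl1 higher only with the 1 cell named above. In the phagocyte class 8.63% of genes were lower and 1.7% were higher, and the median gene stood at -0.24; Cxcl2 was the 1 higher gene of the 3 that reached 10 CPM.

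Phagocyte Cxcl2 sat mostly in 1 cluster, which held 25197 of 26264 UMIs in the chemoresistant and 17591 of 22693 in the primary library. Cluster 9, led by Il1b, Ccl4, Mmp12, Cd14 and Tnf, held 507 cells (12.8% of the class) in the chemoresistant and 277 cells (8.72%) in the primary library. There Cxcl2 stood at 8705 CPM (8598 to 8813) in the chemoresistant and 5106 CPM (5031 to 5182) in the primary library. In phagocytes outside cluster 9 it stood at 48.2 CPM and 149 CPM, against 20.8 and 50.2 CPM in B-lineage cells. Of 7 clusters with at least 20 phagocytes in each library, Cxcl2 was lower in the chemoresistant library in 5. Cxcl1 in cluster 9 stood at 594 CPM (566 to 623) and 339 CPM (320 to 359), and Cxcl3 at 271 CPM (253 to 291) and 258 CPM (241 to 275). Outside it Cxcl1 stood at 7.95 CPM in the chemoresistant and 33.9 CPM in the primary library. The largest other phagocyte value of Cxcl2 was 1601 CPM in cluster 29, led by Ccl8 and Retnla, which had 102 primary and under 20 chemoresistant cells of the class. The 10% of phagocytes with the most Cxcl2 held 95.7% of it in the chemoresistant and 95.3% in the primary library.

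Neutrophil Cxcl2 was split in a like way. Cluster 21, led by Acod1, Ccl3 and Ccl4, held 31 neutrophil-class cells (4.55%) in the chemoresistant and 187 (13.1%) in the primary library. Its Cxcl2 stood at 58339 CPM (55818 to 60945) and 53522 CPM (52919 to 54131). Cluster 4, led by S100a9, S100a8 and Retnlg, held 624 and 1202 cells, with 2012 CPM (1900 to 2128) in the chemoresistant and 1970 CPM (1920 to 2021) in the primary library. Within each cluster the chemoresistant value was slightly the higher one, while the class value was 2.26-fold lower in the chemoresistant library, which had the smaller share of cluster 21. The cell with the most held 450 Cxcl2 UMIs, 13.3% of those of the chemoresistant neutrophils, and the highest primary cell 2.06%. Without the top cell of each library the class log2 ratio was -1.35. The values within clusters were not taken without these cells, so their order may rest on a single cell. At least 1 Cxcl2 UMI was found in 49.1% of chemoresistant and 57.5% of primary neutrophils, and in 40.0% and 40.3% after thinning to 500 UMIs.

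The other large classes had less Cxcl2. Tumour cells had 17.1 CPM in the chemoresistant and 78.3 CPM in the primary library, and B-lineage cells 20.8 and 50.2 CPM. Fibroblasts had 8.47 CPM (5.71 to 12.1) and 182 CPM (168 to 197), a log2 ratio of -3.80 between cells that lay mostly in different clusters. The T and innate lymphoid class had 30.6 and 134 CPM. In the erythroid class of the chemoresistant library, 125 cells with red-cell markers, Cxcl2 stood at 1213 CPM, of which 4 cells that clustered with the Il1b-led phagocytes of cluster 9 held 343 of 352 UMIs; the other cells had 33.0 CPM (15.1 to 62.6). In small classes of the primary library, 44 acinar cells stood at 1653 CPM and at 178 CPM without 1 cell that held 290 of their 324 UMIs, 53 erythroid cells at 188 CPM, 20 mast cells or basophils at 201 CPM and 23 adipocytes at 160 CPM.

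Cxcl3, a ligand of the same gene cluster, followed the same cells at lower counts. Neutrophils had 129 CPM (106 to 156) in the chemoresistant and 278 CPM (262 to 295) in the primary library, a log2 ratio of -1.08 that was -0.14 with the same thinning. Phagocytes had 32.2 CPM in the chemoresistant and 28.2 CPM in the primary library, within 1.5-fold. A single neutrophil held 19.4% of the chemoresistant neutrophils' Cxcl3 UMIs, and 7.27% in the primary library. At least 1 UMI was found in 5.87% of chemoresistant and 10.2% of primary neutrophils. In tumour cells Cxcl3 stood at 0.54 CPM and 2.49 CPM, and in B-lineage cells at 1.73 and 1.27 CPM.

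Cxcl5, a ligand made mostly by epithelial and stromal cells, was the 1 ligand with a higher level over all cells of the chemoresistant library. Fibroblasts had 148 CPM (136 to 161) in the chemoresistant and 28.5 CPM (23.1 to 34.9) in the primary library, a log2 ratio of 2.19. In the fibroblast class 27% of all genes at 10 CPM were lower and 11.6% higher; Cxcl5 was higher and Cxcl1 and Cxcl2 were lower, of 3 that reached 10 CPM. Cells with at least 1 Cxcl5 UMI were 15.8% (11.6 to 20.8%) and 7.63% (4.72 to 11.5%) of fibroblasts. A single fibroblast held 11.1% of the class's Cxcl5 UMIs in the chemoresistant and 18.8% in the primary library.

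The fibroblasts of the libraries were not the same cells. Of the chemoresistant ones 245 of 260 lay in cluster 17, led by Col1a1, Cryab and Spp1, and these held a Cxcl5 level of 149 CPM. Cluster 17 carried 8 of the fibroblast and 5 of the tumour markers, and its 10 leading genes held 3 fibroblast and 0 tumour markers. Whether its cells are host fibroblasts or ID8 cells was not tested, so the fibroblast class is a marker label there. A chemoresistant fibroblast held a median of 7 fibroblast and 3 tumour markers, a primary one 9 and 1. Of the primary ones 134 lay in cluster 27, led by Dcn and Col1a2, with 5.26 CPM of Cxcl5, and 125 in cluster 19, led by Mgp and Col1a2, with 48.1 CPM. Cluster 19 also held 166 of the 172 Cxcl5 UMIs of the primary tumour class, in 93 cells at 70.0 CPM. The cluster carried 14 of the tumour and 10 of the fibroblast markers, but its 10 leading genes held 4 fibroblast and 0 tumour markers, so it is called by its number. Tumour-class Cxcl5 as a whole was 1.15 CPM in the chemoresistant and 4.42 CPM in the primary library, both under 10 CPM. Its log2 ratio of -0.62 turned to 0.11 when the class was taken from named clusters, which leave cluster 19 out. No Cxcl5 UMI was found in chemoresistant neutrophils, with an upper interval limit of 4.41 CPM, and 3 were found in primary ones.

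Cxcr2 marked the receiving cells. In neutrophils it stood at 741 CPM (684 to 802) in the chemoresistant and 660 CPM (635 to 685) in the primary library, a log2 ratio of 0.17 (0.04 to 0.29 without the added 5 CPM), which is within 1.5-fold. The sign turned, to -0.13 with called doublets kept and to -0.15 with cells of at least 1000 UMIs. At least 1 Cxcr2 UMI was found in 52.6% (48.8 to 56.4%) of the chemoresistant and 65.3% (62.7 to 67.7%) of the primary neutrophils. After thinning to 500 UMIs the order was the other way, 35.9% (32.3 to 39.7%) and 27.5% (25.2 to 29.9%). Cxcr2 was spread far more evenly than the ligands: the top 10% of neutrophils held 38.1% of it in the chemoresistant and 35.3% in the primary library, and no cell held more than 14 UMIs.

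In the other classes shown Cxcr2 stayed at a few CPM. Tumour cells had 1.04 CPM and 0.93 CPM, phagocytes 2.76 and 2.47 CPM, and B-lineage cells 1.16 and 2.29 CPM. Neutrophils were 5.19% of chemoresistant cells but held 71.9% of Cxcr2 UMIs, and 11.4% of primary cells with 85.5%. For each 1000 UMIs of S100a8 and S100a9, abundant neutrophil transcripts, chemoresistant neutrophils held 17.3 Cxcr2 UMIs (15.9 to 18.7), tumour cells 30.8 (24.6 to 38.1) and B-lineage cells 30.9 (11.3 to 67.3). In the primary library the ratio was 13.3 (12.8 to 13.8) in neutrophils, 9.45 (6.62 to 13.1) in tumour cells and 16.2 (11.9 to 21.5) in B-lineage cells. Of the other receptors of these ligands, Cxcr1 had 16 UMIs in the chemoresistant and 36 in the primary library, 11 and 27 of them in neutrophils, and the decoy receptor Ackr1 had 64 and 36.

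Neutrophils were both makers and receivers, but the cells with the most Cxcl2 held less Cxcr2. Cluster 21 had 145 CPM of Cxcr2 (47.1 to 338, from 5 UMIs) in the chemoresistant and 169 CPM (137 to 207) in the primary library. Cluster 4 had 977 CPM (899 to 1059) and 819 CPM (787 to 852). A split by genes that are not members gave the same order in the primary library. Neutrophils with Ccl3 or Ccl4 but neither Mmp9 nor Retnlg had 46680 CPM of Cxcl2 and 124 CPM of Cxcr2 there, in 132 cells, while those with Mmp9 or Retnlg and neither chemokine had 2217 and 796 CPM, in 615 cells. In the chemoresistant library the first kind had 34707 CPM of Cxcl2 and 594 CPM of Cxcr2 (363 to 917) in 37 cells, and the second 1618 and 723 CPM in 423 cells. The median depth of the first kind was 817 UMIs in the chemoresistant and 2445.5 UMIs in the primary library, and the part of depth in the split was not tested. Both Cxcl2 and Cxcr2 were detected in 27.0% of chemoresistant and 36.8% of primary neutrophils, and cells with Cxcl2 but no Cxcr2 UMI, 22.1% and 20.7%, held 65.2% and 68.0% of neutrophil Cxcl2. These last cells had a median of 921 UMIs in the chemoresistant and 2384.5 in the primary library. At such depths a cell without a Cxcr2 UMI may still hold the transcript.

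**Figure D4:**
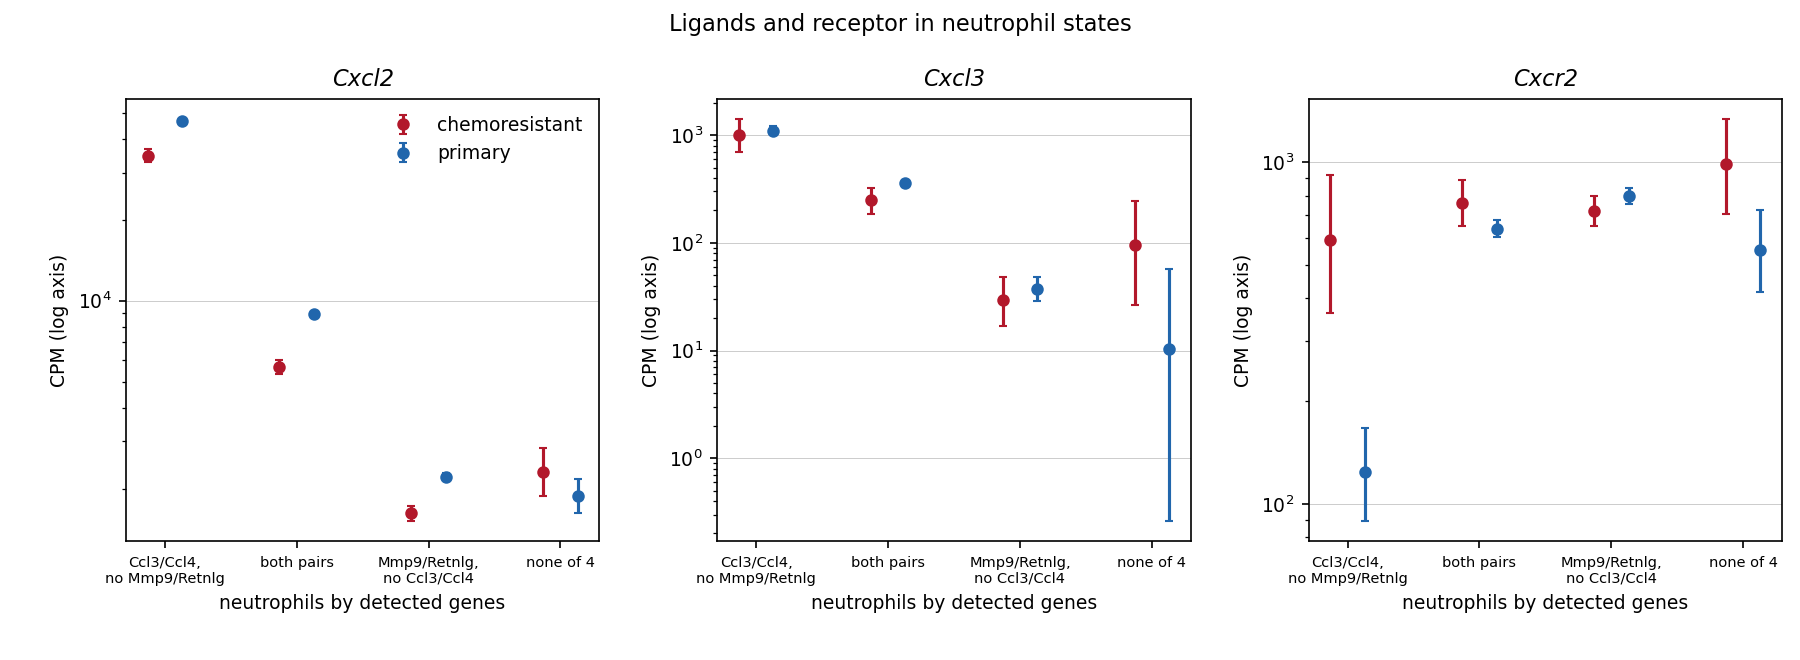
Cxcl2, Cxcl3 and Cxcr2 in neutrophils split by whether Ccl3 or Ccl4, and Mmp9 or Retnlg, were detected, in CPM on a log axis, chemoresistant left of primary; bars are exact Poisson 95% intervals of counting error. Cells with Ccl3 or Ccl4 alone had the highest Cxcl2, 34707 and 46680 CPM, and in the primary library the lowest Cxcr2, 124 CPM.

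Genes around the ligands were followed in lists of their inducers, regulators and signalling partners. The counts for tumour cells stand beside the 11% of all their genes that were lower and the 4.06% that were higher. In tumour cells 1 of 9 receptors of inducing cytokines was lower, Il6ra, and the other 8, among them the receptors of interleukin-1, interleukin-17 and tumour necrosis factor, were within 1.5-fold. This count is near the share over all genes. Il1r1 stood at 15.4 CPM in the chemoresistant and 21.9 CPM in the primary library. Of 7 NF-kB factors and feedback genes 4 were lower and 0 higher; their median log2 ratio was -1.44 against -0.13 over all genes. The inhibitor gene Nfkbia had 175 and 848 CPM, its relative Nfkbiz 40.0 and 248 CPM, and the feedback enzyme gene Tnfaip3 13.2 and 129 CPM. Rela, which encodes the main activating subunit, was within 1.5-fold, with a log2 ratio of -0.16. Of 6 genes that act on chemokine mRNA stability 2 were lower, Zfp36 with 54.4 CPM in the chemoresistant and 447 CPM in the primary library, and Zfp36l2. Zfp36 encodes a protein that speeds decay of such mRNAs and is itself induced by the same stimuli.

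The counts for neutrophils stand beside the 12.6% of all their genes that were lower and the 12.9% that were higher. In neutrophils 3 of 4 inducing cytokines at 10 CPM were lower (Il1a, Tnf and Osm), while Il1b stood at 1513 CPM in the chemoresistant and 2008 CPM in the primary library. Of 12 genes of Cxcr2 signalling and desensitisation 4 were lower and 0 higher: Prex1 and Pik3r5, which act on Rac and phosphoinositide 3-kinase downstream of the receptor, Plcb2, a phospholipase, and Arrb1, an arrestin. Their median log2 ratio was -0.27 against -0.06 over all genes. Of 11 genes of neutrophil mobilisation and adhesion C5ar1 was lower and Cxcr4, the receptor that holds neutrophils in bone marrow, was higher, with 108 CPM in the chemoresistant and 62.3 CPM in the primary library; these counts are near the shares over all genes. Of 10 genes of neutrophil activation in tissue 6 were lower and 1 higher. Among these Cd274, which encodes the checkpoint ligand PD-L1, had 95.6 and 703 CPM, and Ccl3 had 574 and 1787 CPM. Il1a is counted in this list and among the inducing cytokines. These are class values, and cluster 21, led by Acod1, Ccl3 and Ccl4, was a smaller part of the chemoresistant neutrophils. Values of the listed genes within clusters were not taken. Of 10 genes followed for neutrophil maturity, early and late genes together, 1 was lower (Ngp) and 2 higher (Retnlg and Mmp8), also near the shares over all genes. In phagocytes 2 of 5 inducing cytokines were higher, Tnf with 124 CPM in the chemoresistant and 65.8 CPM in the primary library and Il6 with 19.2 and 8.02 CPM, and 0 were lower. Over all genes of the phagocyte class 1.7% were higher and 8.63% lower.

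Across 15 profiles of a class in a library, each with at least 100 cells, the genes whose log2 levels were most like each member's were found among 13130 genes, as a description with no test; profiles of 1 library share its free RNA. Cxcl1 was most like Atf3, an immediate stress-response factor (Pearson r = 0.92), and followed Cxcl2 with r = 0.22 alone. Cxcl2 was most like Il1a (0.97), Cd14, Clec4e, Tnf and Clec4d. Cxcl3 was most like Il1a (0.95), with Cxcl2 at 0.94. Cxcl5 was most like Smarca1 (0.99) and Acan. Cxcr2 was most like Spatc1 (0.998), with the class marker Stfa2l1, Gm47719, Itgb2l and Gm20406 after it.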

How the data were processed

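The authors' deposited files give raw UMI counts for every gene in every barcode of the 3' libraries, and the file headers name Cell Ranger 8.0.1 as their source. Reads were mapped to mm10, per the submitters' processing notes. For the annotation, no version was given in the sources used here. The totals were 158118781 UMIs over 16390 barcodes in the chemoresistant and 141334623 over 14390 in the primary library.

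Barcodes with at least 500 UMIs, at least 250 genes and at most 20% mitochondrial UMIs were kept (14908 and 12824). The mitochondrial limit removed 397 and 1279 of those that met the other limits. Scrublet in scanpy 1.11.5 (expected rate 0.08) marked 0 chemoresistant and 304 primary doublets. Where it marked under 0.5%, the highest-scoring barcodes were removed at 0.8% per 1000 barcodes, 1778 (11.9%) in the chemoresistant library, so doublet removal was stricter there.

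Of 150 markers in 14 lists 149 were found. Counts were summed per class and library and given as CPM; log2 ratios add 5 CPM, and genes averaging at least 10 CPM were called past 1.5-fold. Leiden clusters (leidenalg 0.10.2; 2000 variable genes without the 5 members, 30 components, 15 neighbours, resolution 1.0) gave 33 clusters, left unnamed where their leading genes held more markers of another class. For shares of cells with a UMI, cells were thinned to 500 UMIs, with none left out. A level of 0 was drawn at the level of 3 counts in figures, and its upper limit in the text is that of the exact Poisson interval. Intervals and limits cover counting error only.

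Grouping followed the labels' treatment field. No test was made, since each group is 1 pooled library. The members, gene lists and markers were chosen with earlier results of these data known. All 5 members are named; other genes come from those lists or are the 5 most like each member by Pearson correlation. Alternatives changed doublets, filters, class rules, depth, added CPM, averaging, centring and free RNA. A class lead of 1 marker, leaving out shared barcodes, values without the top cell and the values within cell states were chosen after seeing the data. Positions are from GENCODE vM21 (GRCm38) and promoters from RefSeq, which had an entry for 4 of the 5 members. Figures used matplotlib 3.10.9.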

Additional observations from a re-analysis of the deposited data

How the results depend on the processing

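The direction held under all 13 alternatives for Cxcl1 in tumour cells and for Cxcl2 in both myeloid classes, and under all 9 for the shares of UMIs. Tumour Cxcl1, with a log2 ratio of -3.73, came out at -3.66 with doublets kept, -3.84 with 1 doublet rule for both libraries, -3.79 without a mitochondrial limit, -3.90 with a lead of 4 markers or with clusters, -3.37 thinned to 1000 UMIs with shallower cells left out, -3.79 with 1 CPM added, -3.41 as a mean over cells, -3.60 centred on the median gene, -3.91 with the B-lineage level subtracted and -3.64 with a lead of 1 marker. Phagocyte Cxcl2 (0.80) was 0.64 with doublets kept, 0.97 with 1 doublet rule, 0.55 with a lead of 4, 0.96 with clusters, 0.89 thinned or with the B-lineage level subtracted, 0.87 as a mean over cells, 1.03 centred and 0.83 with a lead of 1. Neutrophil Cxcl2 (-1.18) was -1.43 with doublets kept, -1.11 from 1000 UMIs, -1.10 with clusters, -0.57 thinned, -0.93 as a mean over cells and -1.12 centred. Neutrophil Cxcr2 (0.17) turned to -0.13 with doublets kept and -0.15 from 1000 UMIs, and was 0.48 with clusters and 0.29 as a mean over cells. Tumour Cxcl5 (-0.62) turned to 0.11 with clusters and was -1.33 with 1 CPM added.

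The tumour share of Cxcl1, lower by 16.9 percentage points (-16.9), was at -21.2 with 1 doublet rule, -9.15 with a lead of 4, -28.4 with clusters and -20.9 thinned. The neutrophil share of Cxcl2 (-36.9) was at -42.9, -29.3, -50.0 and -47.6 under those 4 settings, in that order, -39.8 from 1000 UMIs, -36.2 without a mitochondrial limit and -40.6 with a lead of 1. The neutrophil share of Cxcr2 (-13.6) was at -19.1 with doublets kept, -18.9 with 1 doublet rule, -27.3 from 1000 UMIs, -17.9 with a lead of 4 and -8.16 thinned. Of the other values, phagocyte Cxcl3 (0.17) turned to -0.029 with doublets kept and -0.52 with a lead of 4, and neutrophil Cxcl1 (0.64) to -0.93 with a lead of 4, -0.45 with clusters and -0.50 as a mean over cells, and to -0.30 without the top cell of each library. The cause was not tested, other than that clusters leave out cluster 19, which held nearly all tumour-class Cxcl5 of the primary library. No paired analysis was possible because each group is 1 library. Depth limits the neutrophil values, at a median of 902 UMIs per chemoresistant and 2432 per primary neutrophil.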

Other observations

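Ppbp, a platelet chemokine of the same gene cluster that also binds Cxcr2, had 126 UMIs in the chemoresistant and 298 in the primary library, and 104 and 187 of these lay in mononuclear phagocytes. Cxcl15, the lung-type member between Cxcl3 and Cxcl1, had 2 UMIs and 1 UMI. In tumour cells Pf4, a neighbour on chromosome 5 that does not signal through Cxcr2, stood at 23.4 CPM in the chemoresistant and 56.0 CPM in the primary library, beside 2125 and 2228 CPM in phagocytes.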
